A study of Mus musculus with 58 samples.

Results

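The ribosome biogenesis factors described here are 36 genes, taken from a list of members given by name, of 54532 gene identifiers in the RNA-seq count tables of this series and 18411 in its ribosome footprint and lysate RNA tables. All 36 were found in all 6 tables. Their products are the factors that make, fold, modify and cut the precursor of ribosomal RNA, mostly in the nucleolus. RNA polymerase I transcribes that precursor, small nucleolar ribonucleoproteins (snoRNPs) modify it, and processing factors separate it into the RNAs of the small and the large ribosomal subunit. The members were grouped by role into 3 box C/D snoRNP proteins (Fbl, Nop56, Nop58), 4 box H/ACA snoRNP proteins (Dkc1, Nhp2, Nop10, Gar1), 3 abundant nucleolar chaperones (Ncl, Npm1, Nolc1), 4 parts of the RNA polymerase I machinery (Polr1a, Polr1b, Ubtf, Rrn3), 10 factors of the small subunit and 12 of the large subunit. Neurons have a large nucleolus and rely on a steady supply of ribosomes.

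RNA was taken from the striatum of adult mice, labelled strain B6129S, of a 3g line and a 16p11.2 line. In the 3g line, 3g del/+ mice carry premature stop codons made with CRISPR on one copy of each of Taok2, Sez6l2 and Mvp. In the 16p11.2 line, 16p11.2 del/+ mice lack one copy of the mouse interval that corresponds to human 16p11.2, which holds those genes and others. Wild-type (wt) mice of each line were the controls, with 4 RNA-seq libraries for each line, genotype and sex, and the same series holds 13 ribosome footprint libraries and 13 libraries of RNA from the same lysates of other male mice. The footprint libraries come from 3 wt and 3 del/+ males of the 3g line and 4 wt and 3 del/+ males of the 16p11.2 line. The alleles are carried by the whole animal and the tissue was taken in bulk, so no value belongs to one cell type, and fewer cells of a type and less RNA per cell cannot be told apart. Line cannot be told apart from how and when its libraries were made and sequenced.

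Total counts were 11711099 to 65529807 in the RNA-seq libraries, 15102576 to 19122488 in the lysate RNA libraries and 342052 to 678130 in the footprint libraries. The 8 markers of striatal neurons were detected in all groups, with summed levels of 3740 to 6905 CPM in RNA-seq (CPM are counts scaled to the size of each library). Sez6l2 was at 188.6 to 225 CPM in 3g del/+ and 273.7 to 335.6 in 3g wt libraries, and Taok2 at 83.2 to 94.92 CPM in 16p11.2 del/+ and 153.5 to 195.6 in 16p11.2 wt libraries. Taok2 itself was at 156.2 to 197.5 CPM in 3g del/+ and 175.7 to 182.2 in 3g wt libraries. The labels name separate animals, and p-values measure the spread between these libraries. The 3 libraries that stood apart from their groups were 3g wt male 17, 16p11.2 del/+ male 4 and 16p11.2 del/+ female 1. On an axis from the mean of 3g wt females (position 0) to that of 16p11.2 wt females (position 1), over the genes that differed between those groups, positions ran from -0.08 to 0.176 in 15 of the 3g libraries and from 0.807 to 1.26 in 14 of the 16p11.2 libraries. The library labelled 3g wt male 17 lay at 0.84 and the library labelled 16p11.2 del/+ male 4 at 0.212. In 16p11.2 del/+ male 4 Taok2 was at 89.09 CPM, among the other 16p11.2 del/+ libraries and below every 3g library. The library labelled 16p11.2 del/+ female 1 lay at 0.821 and was 1 of 16 female-labelled libraries with transcripts of Y-linked genes. Numbers of members called in the RNA-seq comparisons of genotypes and of lines are given with and without these libraries, as are the members' medians between genotypes. Other values include these libraries unless stated. Among them are the counts of members above or below 0, under an unadjusted p, or without overlap.

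Averaged over all 36, the ribosome biogenesis factors varied less between the RNA-seq libraries than the ribosomal protein genes did. The mean of log2 CPM over the members lay between 5.03 and 5.23 in the 32 libraries, and this mean does not show members that differed in opposite directions. The same mean over 79 cytosolic ribosomal protein genes was 7.40 in 3g wt male 17 and 6.53 to 6.72 in the rest of its line, and 6.46 in 16p11.2 del/+ male 4 and 6.98 to 7.62 in the rest of its line. On the axis between the lines, taken over the 27 members that differed between wt females of the lines, 3g wt male 17 lay at 1.09 and 16p11.2 del/+ male 4 at -0.0992.

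**Figure D1:**
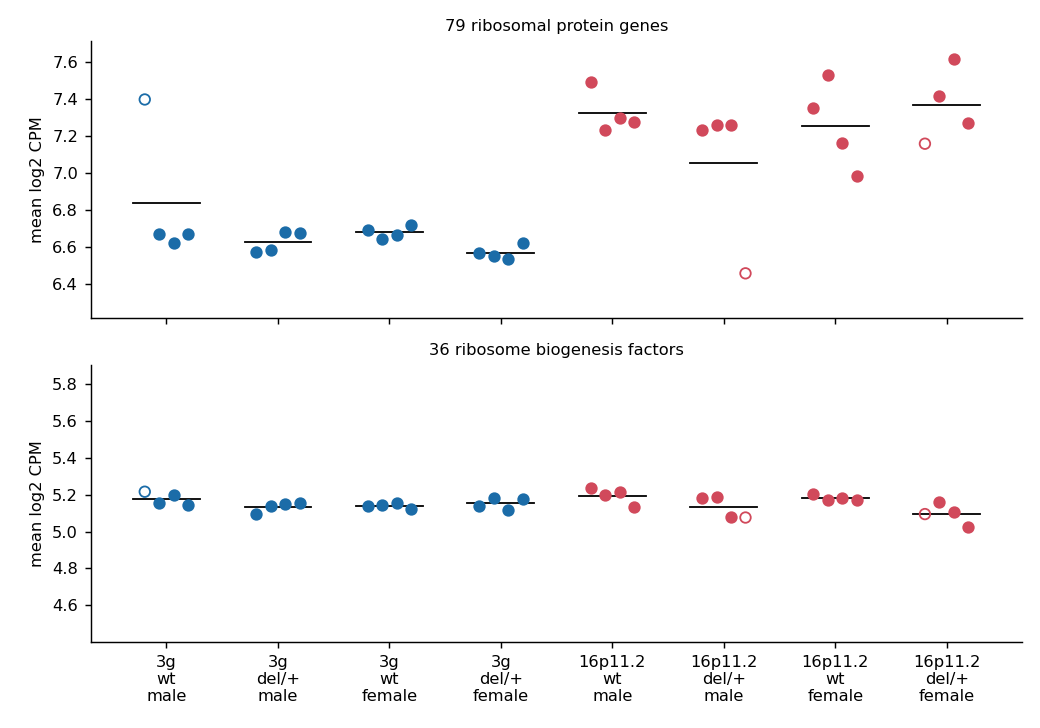
Mean log2 CPM of 79 ribosomal protein genes (upper panel) and of the 36 ribosome biogenesis factors (lower panel) in each RNA-seq library (points) of 8 groups, on axes of equal length that do not start at 0. Lines are group means, blue is the 3g line, red the 16p11.2 line, and open circles are the 3 libraries that stood apart. The ribosomal protein mean separates the lines except for 3g wt male 17 and 16p11.2 del/+ male 4, whereas the biogenesis mean stays between 5.03 and 5.23.

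The first question was whether either genotype changed these factors in the striatum. None of the 36 passed the test in any of the 4 RNA-seq comparisons of del/+ with wt (edgeR quasi-likelihood test, Benjamini-Hochberg adjusted p under 0.05 over all genes tested). In 3g males no gene of 19081 passed (0%), no member was under an unadjusted p of 0.05 (1.44% of all genes were), and DESeq2 called no member and gave none under an unadjusted p of 0.05. In 3g females 1 gene of 19024 passed (0.00526%), with no member under an unadjusted p of 0.05 (11% of all genes were) by edgeR or DESeq2. In 16p11.2 males 19 genes of 17957 passed (0.106%), with 1 member under an unadjusted p of 0.05 (5.82% of all genes were) by edgeR and 1 by DESeq2. In 16p11.2 females 26 genes of 18067 passed (0.144%), with 6 members under an unadjusted p of 0.05 (4.47% of all genes were) by edgeR and 4 by DESeq2.

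The sizes were small throughout. Log2 fold changes of the members, del/+ against wt, ran from -0.26 to 0.19 in 3g males, from -0.11 to 0.11 in 3g females, from -0.23 to 0.34 in 16p11.2 males and from -0.22 to 0.06 in 16p11.2 females. Their median was -0.04 in 3g males and 0.02 in 3g females, with 11 and 21 of 36 above 0. In the 16p11.2 line it was -0.10 in males and -0.09 in females, with 11 and 5 of 36 above 0. Without the libraries that stood apart the ranges were -0.14 to 0.09 in 3g males, -0.24 to 0.27 in 16p11.2 males and -0.25 to 0.11 in 16p11.2 females. The median over all genes tested was within 0.01 of 0 in each of these comparisons (-9.99e-05, -0.00115, -0.00506 and -0.0012). In 16p11.2 females 31 of the 36 values were therefore below 0, although no single one passed.

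The ribosomal protein genes did not share that direction in 16p11.2 females. There 73 of 79 were above 0, with a median log2 fold change of 0.11, or 0.18 without 16p11.2 del/+ female 1, while the median of the biogenesis factors was -0.09 with that library and -0.08 without it. In 3g males the ribosomal protein median was -0.24 and became -0.03 without 3g wt male 17, and the member median moved from -0.04 to -0.02. In 16p11.2 males the ribosomal protein median was -0.24 and became -0.08 without 16p11.2 del/+ male 4, and the member median moved from -0.10 to -0.07. Leaving out those libraries gave 0 members called in each of the 3 comparisons. In 3g females, which hold none of the libraries that stood apart, the ribosomal protein median was -0.11 and the member median 0.02.

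**Figure D2:**
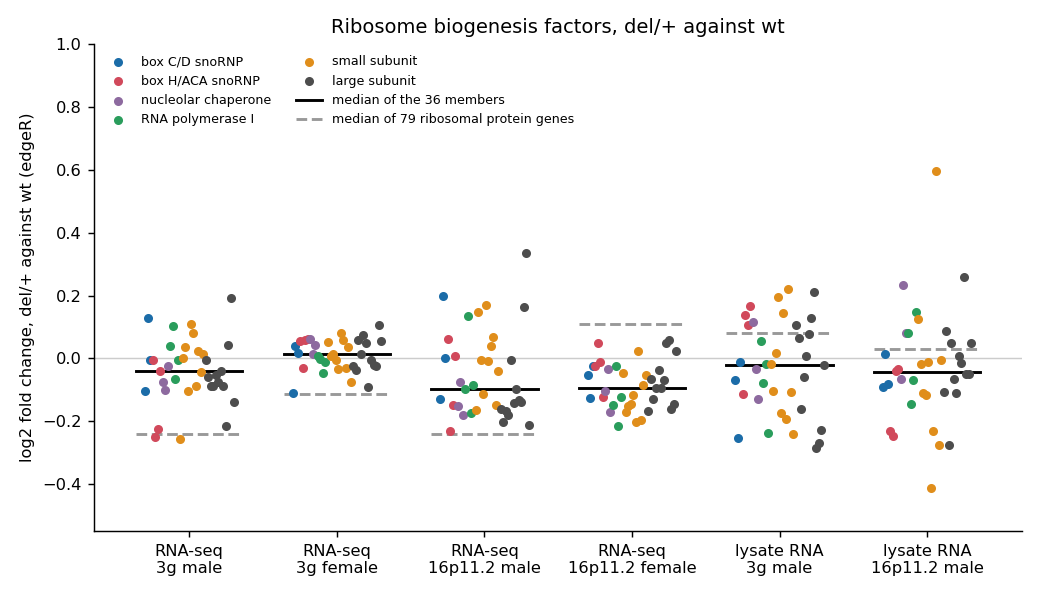
Log2 fold change of del/+ against wt for each of the 36 factors (points, coloured by role) in 4 RNA-seq and 2 lysate RNA comparisons, with the median of the members (solid line) and of 79 ribosomal protein genes (dashed line). Most points lie within 0.3 of 0, and in 16p11.2 females the member median is -0.09 where the ribosomal protein median is 0.11.

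RNA polymerase I transcribes the ribosomal RNA precursor and is loaded by upstream binding factor, encoded by Ubtf, which keeps the ribosomal RNA genes open. In 16p11.2 females Ubtf was at 130.6, 140.3, 132 and 126.2 CPM in the del/+ libraries and at 158.9, 146.5, 147.4 and 159.9 CPM in the wt libraries. The groups did not overlap, with means of 132 ± 5.92 and 153 ± 7.18 CPM (SD, n = 4 each) and a log2 fold change of -0.22 (SE 0.06). The exact two-sided permutation test gave p = 0.0286, the smallest that 4 against 4 allows, and the adjusted p of edgeR was 0.762 (0.178 by DESeq2). The permutation p is not corrected for the number of members. Ubtf was the member with the smallest unadjusted p in 16p11.2 females, 0.00382, and its log2 fold change was -0.21 without 16p11.2 del/+ female 1.

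In 16p11.2 males Ubtf was at 130, 140, 135 and 139 CPM in del/+ and at 161, 157, 162 and 135 CPM in wt libraries, where 1 wt library lay among the del/+ ones. Its log2 fold change was -0.17 (SE 0.09, adjusted p = 0.742 by edgeR). In the 3g line Ubtf was at 127 to 140 CPM in del/+ and 132.5 to 139 CPM in 3 wt males, with 158.6 CPM in 3g wt male 17, and at 125 to 139 CPM in del/+ and 131 to 141 CPM in wt females, with log2 fold changes of -0.06 (SE 0.07) and -0.05 (SE 0.04). Without 3g wt male 17 the value in males was -0.01. The genotypes overlapped in both sexes of the 3g line. In the other males' lysate RNA the log2 fold change of Ubtf was -0.02 (SE 0.11) in the 3g line and -0.07 (SE 0.09) in the 16p11.2 line.

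The largest subunit of the same enzyme, encoded by Polr1a, followed the same order in 16p11.2 females. It was at 39.2, 37.8, 35.7 and 36.03 CPM in del/+ and at 40.8, 39.5, 41.1 and 42.9 CPM in wt libraries, again without overlap, with a log2 fold change of -0.15 (SE 0.06) and an unadjusted p of 0.0399 (adjusted p = 0.998 by edgeR). In 16p11.2 males it was at 34.7 to 46.0 CPM in del/+ and 37.6 to 44.8 CPM in wt. The del/+ value of 46.0 belonged to 16p11.2 del/+ male 4, which stood apart, and the log2 fold change without it was -0.20. Polr1a in the 3g line was at 46.3 to 52.7 CPM in del/+ and 43.2 to 52.5 CPM in wt libraries. The second-largest subunit, Polr1b, and the initiation factor Rrn3 had log2 fold changes of -0.02 and -0.12 in 16p11.2 females (SE 0.10 and 0.06) and of -0.000845 and -0.01 in 3g females (SE 0.04 and 0.03).

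In 16p11.2 females 3 of the 36 members had groups that did not overlap in CPM, all lower in del/+, where 2.74% of all genes tested did not overlap in either direction. They were Ubtf, Polr1a and Rrp9, a component of the U3 snoRNP that works on the small subunit. All 6 members under an unadjusted p of 0.05 were lower in del/+ (2.45% of all genes were under it and lower). Beside Ubtf and Polr1a they were Rrp12, Ltv1, Nolc1 and Nop2, with log2 fold changes of -0.20, -0.20, -0.17 and -0.17. They act at different steps, since Rrp12 and Ltv1 serve maturation and export of subunits, Nolc1 is a chaperone of snoRNPs and Nop2 methylates the large subunit RNA. In 16p11.2 males 2 members did not overlap, both lower in del/+ (3.81% of all genes did not overlap), namely Bop1 and Sbds. Sbds was at 46.2 to 63.2 CPM in del/+ and 63.3 to 72.1 CPM in wt libraries, so that its groups nearly touched, and it was named here after its values were seen.

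In 16p11.2 females the summed levels of the 5 endothelial markers were 75.67 to 103.1 CPM in del/+ and 90.55 to 122 CPM in wt. Of these markers 4 were below 0 in del/+ against wt and 2 were under an unadjusted p of 0.05, with a median log2 fold change of -0.30, or -0.34 without 16p11.2 del/+ female 1. The 5 astrocyte markers summed to 884.4 to 1180 CPM in del/+ and 860.1 to 1024 CPM in wt, and all 5 were above 0 with a median of 0.15, or 0.20 without that library. No marker of either type was called, and none was at 0. Their part in the values of the factors was not tested.

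Other genes of the pathway lay on the same side of 0 in 16p11.2 females and none was called. Of 139 further ribosome biogenesis genes, 138 were tested, 25 were above 0 and 113 below, with a median of -0.09 and 0 called. By group, 42 of 47 small subunit genes, 43 of 50 large subunit genes, 10 of 13 RNA polymerase I genes and 13 of 17 nuclease and decay genes were below 0. The 11 snoRNP genes were split, with 6 above and 5 below 0. In the other 3 RNA-seq comparisons the median of the 138 was -0.02 (3g males), -0.00279 (3g females) and -0.04 (16p11.2 males), again with 0 called.

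Single libraries weighed on Rrp12 and Gnl3. Rrp12 was at 30.6, 30.7, 28.7 and 27.4 CPM in del/+ and 31.2, 30.5, 36.9 and 36.03 CPM in wt females of the 16p11.2 line, with overlap at the lower wt libraries. In males of that line it was at 31.5, 34.03 and 30.4 CPM in 3 del/+ libraries and at 48.1 CPM in 16p11.2 del/+ male 4, against 31.2 to 43.3 CPM in wt, and its log2 fold change with that library included was -0.01 (SE 0.16).

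Gnl3, which encodes nucleostemin, a GTP-binding protein of large subunit assembly, had the smallest unadjusted p in 16p11.2 males, 0.0399, and the largest log2 fold change, 0.34 (SE 0.14, adjusted p = 0.742 by edgeR), or 0.27 without 16p11.2 del/+ male 4. Its values were 22.99, 20.94, 19.96 and 25.28 CPM in del/+ and 16.7, 20.7, 19.7 and 13.7 CPM in wt males. The groups overlapped, since the highest wt library exceeded the lowest del/+ library. In 16p11.2 females the direction was opposite, with 22.6, 16.0, 16.3 and 21.4 CPM in del/+ and 21.8, 20.06, 20.5 and 21.96 CPM in wt, and a log2 fold change of -0.15 (SE 0.12). In 3g females Gnl3 was at 25.7 to 30.04 CPM in del/+ and 25 to 27.1 CPM in wt (log2 fold change 0.11, SE 0.05, adjusted p = 0.476 by edgeR). In 3g males it was at 27.4 to 28.9 CPM in del/+ and 26.4 to 27.6 CPM in 3 wt libraries, with the 4th, 3g wt male 17, at 17.4 CPM.

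The large subunit factors with the smallest p in the other comparisons were as close. Bop1, a member with Pes1 and Wdr12 of the PeBoW complex that processes large subunit RNA, was at 48.9, 50.5, 49.9 and 46.2 CPM in del/+ and 58.2, 51.3, 56.8 and 54.1 CPM in wt males of the 16p11.2 line. These did not overlap (exact two-sided permutation p = 0.0286, the smallest possible), with a log2 fold change of -0.17 (SE 0.08, adjusted p = 0.742 by edgeR). That permutation p is not corrected for the choice of Bop1 by its p in these same libraries. In females of that line Bop1 was at 44.1 to 53.2 CPM in del/+ and 52.7 to 56.4 CPM in wt. In the 3g line the del/+ and wt ranges were 45.2 to 54.1 and 47.4 to 55.4 CPM in males and 50.8 to 54.1 and 48.0 to 52.0 CPM in females, and overlapped.

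Mrto4, which takes part in assembly of the ribosomal stalk, was at 15.1, 18.4, 18.1 and 18.8 CPM in 3g del/+ males and at 18.9, 17.86 and 20.25 CPM in 3 wt males, with 25.7 CPM in 3g wt male 17. Ebna1bp2, a large subunit factor, was at 36.4, 38.1, 35.1 and 39.8 CPM in 3g del/+ females and at 39.3, 40.4, 39.5 and 39.5 CPM in wt females (log2 fold change -0.09, SE 0.04, adjusted p = 0.453 by edgeR). Both overlapped between genotypes. Mrto4 was at 17.6 to 26.2 CPM in the 16p11.2 del/+ libraries and 19.0 to 25.5 CPM in 16p11.2 wt libraries, and Ebna1bp2 at 34.8 to 41.9 and 36.02 to 45.01 CPM.

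No snoRNP protein passed the test of genotype. Fibrillarin, encoded by Fbl, is the methyltransferase of the box C/D particle. It was at 18.3, 18.0, 18.0 and 19.3 CPM in 3g del/+ females and at 20.2, 18.4, 21.2 and 19.7 CPM in wt females, with overlap (log2 fold change -0.11, SE 0.05, adjusted p = 0.481 by edgeR). Its range was 15.5 to 19.2 CPM in del/+ and 17.3 to 19.6 CPM in wt males of the 3g line. In the 16p11.2 line it was 15.1 to 19.4 and 17.4 to 20.5 CPM in males and 15.6 to 17.5 and 15.4 to 18.6 CPM in females.

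Dyskerin, encoded by Dkc1, is the pseudouridine synthase of the box H/ACA particle and also part of telomerase. Dkc1 was at 24.7 to 29.4 CPM in del/+ and 24.02 to 29.7 CPM in wt males of the 3g line and at 25.6 to 26.9 and 23.6 to 26.3 CPM in females. In the 16p11.2 line it was at 27.8 to 34.6 and 28.7 to 32.1 CPM in males and at 29.1 to 32.5 and 29.6 to 32.9 CPM in females. Its 4 log2 fold changes lay between -0.02 and 0.06. Nhp2, its partner in the particle, was at 24.2, 23.2, 23.95 and 25.5 CPM in 3g del/+ males and at 24.9, 26.9 and 26.3 CPM in 3 wt males, with 37.9 CPM in 3g wt male 17. With that library in the comparison the log2 fold change of Nhp2 was -0.25 (SE 0.12, adjusted p = 0.974 by edgeR), and without it -0.10.

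The chaperones bind ribosomal RNA and ribosomal proteins in the nucleolus. Nucleolin, encoded by Ncl, was at 217 to 245 CPM in 3g del/+ males and 215 to 236 CPM in 3 wt males, with 294 CPM in 3g wt male 17. It was at 232 to 246 and 220 to 236 CPM in del/+ and wt females of that line, at 209.2 to 303.5 and 259.5 to 305.1 CPM in males of the 16p11.2 line, and at 232.5 to 279.9 and 268.4 to 279.7 CPM in females of it. Nucleophosmin, encoded by Npm1, was at 97.1 to 116 and 97.6 to 132 CPM in 3g males, 98.3 to 109 and 98.1 to 108 CPM in 3g females, 89.3 to 135 and 122 to 130 CPM in 16p11.2 males, and 110 to 135 and 118 to 128 CPM in 16p11.2 females. In each of these 8 comparisons the genotypes overlapped. The lowest value of both genes in the 16p11.2 line was in 16p11.2 del/+ male 4.

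Translation of the factors was asked in striatal lysates of other males. In lysate RNA 3 genes of 14378 passed in the 3g line (0.0209%) and 19 of 14330 in the 16p11.2 line (0.133%), with no member called in either by edgeR or DESeq2. No member in the 3g line and 1 in the 16p11.2 line was under an unadjusted p of 0.05 by edgeR, where 4.92% and 4.41% of all genes were, and DESeq2 gave the same counts. That member was Ltv1, at 4.49, 4.69 and 4.70 CPM in del/+ and 4.08, 2.19, 2.49 and 3.40 CPM in wt males (log2 fold change 0.60, SE 0.24, adjusted p = 0.990 by edgeR). The groups did not overlap. In lysate RNA of that line 1 member was higher and 1 lower in del/+ without overlap, where 5.68% of all genes did not overlap. In the 3g line 0 members were higher and 4 lower without overlap (9.66% of all genes). In RNA-seq of 16p11.2 males Ltv1 was at 13.86 to 15.05 CPM in del/+ and 12.77 to 14.64 CPM in wt, with overlap. Its log2 fold change in RNA-seq of 16p11.2 females was -0.20.

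Footprints of single members were few, with a median of 7 counts per member and library and at most 65. The filter on low counts left 17 members in the 3g line and 7 in the 16p11.2 line. In the 3g line 1 of 7553 genes was called (0.0132%) and 7.97% were under an unadjusted p of 0.05, and in the 16p11.2 line 7 of 5964 were called (0.117%) and 6.15% were under it. No tested member was called or under an unadjusted p of 0.05 in either line, by edgeR or DESeq2.

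Translational efficiency, the change of footprints relative to lysate RNA of the same animal, was tested for all 36. Of 15137 genes 10 were called in the 3g line (0.0661%) and of 15071 genes 10 in the 16p11.2 line (0.0664%), with no member among them by edgeR or DESeq2. One member in each line was under an unadjusted p of 0.05 by either tool, where 6.38% and 5.59% of all genes were by edgeR. They were Nop2 in the 3g line (log2 fold change -1.65, SE 0.71, adjusted p = 0.672 by edgeR) and in the 16p11.2 line Dkc1 (1.56, SE 0.73, adjusted p = 0.844). The standard errors of the members ran from 0.27 to 0.98 in the 3g line and from 0.25 to 1.085 in the 16p11.2 line, with medians of 0.50 and 0.57, so differences of that size were not detectable at this depth.

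The next question was whether the genotype effect differed between the lines or the sexes. No member was called in any of 6 interaction tests by edgeR or DESeq2. In males of the RNA-seq libraries the line by genotype test called 15 of 19488 genes (0.077%) and put 0 members under an unadjusted p of 0.05 (1.72% of all genes). In females it called 25 of 19546 (0.128%) and put 7 members under an unadjusted p of 0.05 (6.82% of all genes), or 8 by DESeq2 and 9 without 16p11.2 del/+ female 1. Those 7 were Rrp12, Nolc1, Bop1, Ubtf, Ncl, Polr1a and Rrp9. For each the log2 fold change of del/+ against wt was lower in the 16p11.2 line than in the 3g line. These differences between log2 fold changes ran from -0.28 for Rrp12 (SE 0.09, adjusted p = 0.626 by edgeR) to -0.15 for Polr1a (SE 0.07, adjusted p = 0.727). In lysate RNA 18 of 14740 genes were called (0.122%) with 2 members under an unadjusted p of 0.05 by either tool (5.98% of all genes), and in footprints 13 of 7692 (0.169%) with 1 of 16 members tested under it by edgeR and 0 by DESeq2 (8.92% of all genes). The genotype by sex tests called 0 of 19830 genes in the 3g line (0%) and 0 of 18870 in the 16p11.2 line (0%), with 0 and 4 members under an unadjusted p of 0.05 by either tool, where 2.69% and 4.33% of all genes were.

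Between the lines many members differed, some higher and some lower. In wt females 27 of 36 members were called between the 16p11.2 and the 3g line, where 11385 of 19013 genes (59.9%) were. Of these 15 were higher in the 16p11.2 line (29.8% of all genes were called higher) and 12 lower (30.1% called lower). Groups of 4 libraries did not overlap for 26 members, 16 higher and 10 lower, where 55.4% of all genes did not overlap. The shares of members called and without overlap were above those of all genes, and that excess was not tested. Of the ribosomal protein genes 75 of 79 were called, 74 of them higher, with a median log2 fold change of 0.62. The median of the members was 0.12, with a range from -0.56 to 0.61. DESeq2 called 28 members.

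In RNA-seq of wt females the box H/ACA proteins were higher in the 16p11.2 line. Nop10, the smallest protein of the particle and chosen for display after its values were seen, was at 32.4, 32.8, 30.04 and 28.5 CPM in 16p11.2 wt females and at 20.1, 19.7, 19.5 and 20.6 CPM in 3g wt females. The groups did not overlap, with a log2 fold change of 0.61 (SE 0.06, adjusted p = 1.9e-05 by edgeR). Nhp2 was at 41.4, 41.9, 36.02 and 36.6 CPM against 27.8, 22.98, 27.5 and 27.6 CPM (0.54, SE 0.08, adjusted p = 0.000185). Dkc1 was higher by 0.30 (SE 0.05, adjusted p = 8e-04), and Gar1 was at 0.17 (SE 0.08, adjusted p = 0.0754) and did not pass. In lysate RNA of other wt males Nop10 was at 12.66 to 18.91 CPM in the 16p11.2 line and 15.49 to 16.46 CPM in the 3g line. Nhp2 was at 11.50 to 14.56 against 10.88 to 11.95 CPM there. In footprints of those males Nop10 was lower in the 16p11.2 line without overlap, at 10.58 to 27.51 against 32.20 to 52.69 CPM (10.3% of all genes did not overlap). Nhp2 overlapped, at 16.19 to 26.44 against 14.37 to 28.36 CPM.

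In RNA-seq of wt females no box C/D protein was called higher in the 16p11.2 line. Nop56 was lower in the 16p11.2 line by a log2 fold change of -0.40 (SE 0.05, adjusted p = 5.92e-05), Fbl was lower at -0.21 (SE 0.08, adjusted p = 0.0343), and Nop58 was at 0.01 (SE 0.06, adjusted p = 0.853). With each library left out in turn Fbl kept its call in 3 of 8 fits, and in males without 3g wt male 17 it was at -0.01. Among the chaperones Npm1 (0.26) and Ncl (0.24) were higher and Nolc1 (-0.15) lower. Nolc1 kept its call in 1 of 8 such fits and was at -0.04 in those males. In the polymerase group Polr1b (-0.55, SE 0.06) and Polr1a (-0.25, SE 0.05) were lower, Ubtf was higher (0.16, SE 0.05, adjusted p = 0.014) and Rrn3 did not pass (0.05, SE 0.04).

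Small subunit factors were called in both directions. Utp20, a very long scaffold protein of the small subunit precursor and also chosen after its values were seen, was at 23.8, 20.5, 21.65 and 27.02 CPM in 16p11.2 wt females and 35.5, 33.5, 34.9 and 31.8 CPM in 3g wt females, without overlap (-0.56, SE 0.08, adjusted p = 0.000227). Bms1 (-0.54), Rrp12 (-0.42) and Rrp9 (-0.27) were lower too. Utp3 (0.35), Bysl (0.27) and Tsr1 (0.15) were higher, and Nop14, Ltv1 and Nob1 lay between -0.07 and 0.12 and did not pass. Tsr1 kept its call in 1 of 8 fits with a library left out and was at 0.04 in males without 3g wt male 17. Of the large subunit factors Nip7 (0.38), Sbds (0.36), Nop16 (0.34), Wdr12 (0.26), Pes1 (0.25) and Rrp1 (0.17) were higher, Gnl2 (-0.41), Gnl3 (-0.30) and Nop2 (-0.18) were lower, and Mrto4 (0.19), Bop1 (0.11, adjusted p = 0.0507) and Ebna1bp2 (-0.04) did not pass.

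**Figure D3:**
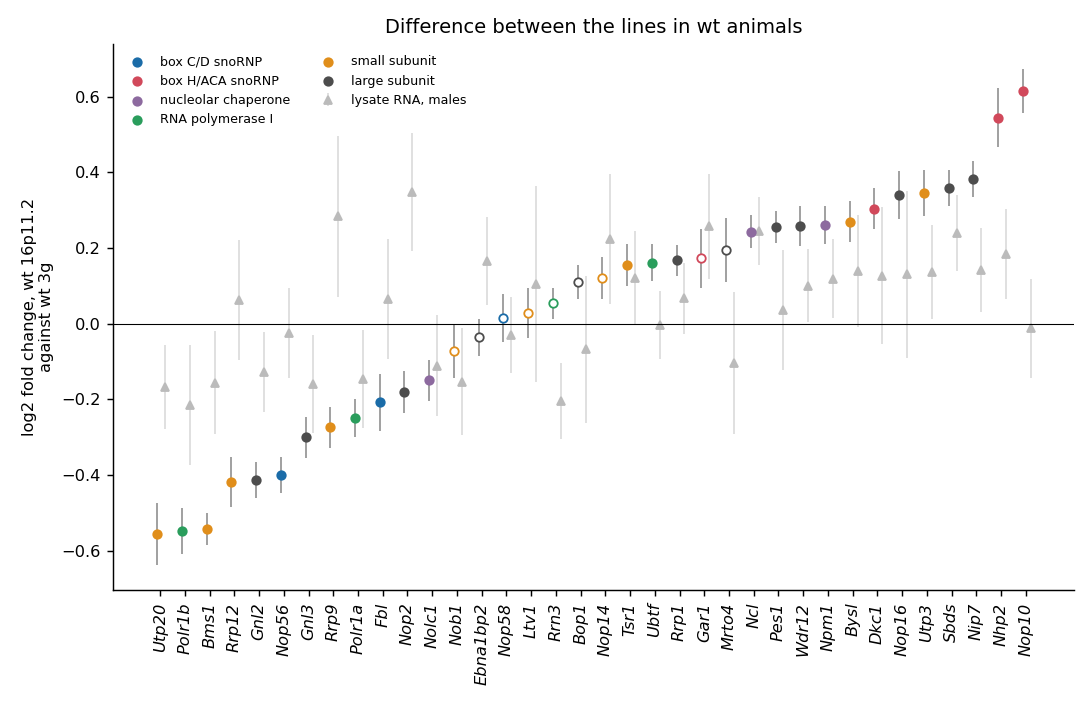
Log2 fold change between wt mice of the 16p11.2 and the 3g line for each of the 36 factors, with SE bars. Circles are RNA-seq of females coloured by role (filled where edgeR's adjusted p was under 0.05, open where not) and grey triangles are lysate RNA of other males. Circles run from -0.56 for Utp20 to 0.61 for Nop10, and triangles from -0.22 to 0.35.

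In wt males 0 members passed with all libraries (3 of 18561 genes did, 0.0162%), 12 were under an unadjusted p of 0.05 (36.1% of all genes were) and DESeq2 called 4 members. Without 3g wt male 17, 19 members passed, 11 higher and 8 lower (46.3% of all genes passed). Of these 18 were also called in females, all 18 in the same direction. The values of the 36 members in females and in males without that library, which share no animals, had Pearson's r of 0.95 and Spearman's rho of 0.95 across members, and 33 of 36 had the same sign. Genes are not independent replicates. The shared calls, signs and correlations were not taken over all genes, so they are not shown to be particular to the members. In lysate RNA of other wt males 0 members passed by edgeR or DESeq2 (2 of 14417 genes did, 0.0139%), 3 were under an unadjusted p of 0.05 by edgeR and 2 by DESeq2 (10.8% of all genes by edgeR), and values ran from -0.22 to 0.35. Signs there were those of the RNA-seq females for 25 of 36 members (69.4%), where they were for 58.5% of 13947 genes. In footprints 11 members were tested and 0 passed by either tool (16 of 6633 genes did, 0.241%), with 2 under an unadjusted p of 0.05 by edgeR and 1 by DESeq2 (10.5% of all genes by edgeR).

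Markers of other cell types moved with line in the RNA-seq libraries. The 6 cortical neuron markers summed to 37.15 to 660.9 CPM in the 3g line, with 935.3 in 3g wt male 17, and to 775.3 to 1378 CPM in the 16p11.2 line. The oligodendrocyte markers summed to 4071 to 7281 CPM in the 3g line, with 10780 in 3g wt male 17, and to 8528 to 14070 CPM in the 16p11.2 line, with 5497 in 16p11.2 del/+ male 4. The endothelial markers summed to 191.2 to 212.7 CPM in the 3g line, with 110.5 in 3g wt male 17, and to 75.67 to 122 CPM in the 16p11.2 line, with 224.2 in 16p11.2 wt male 4 and 211 in 16p11.2 del/+ male 4. The astrocyte markers summed to 793 to 915.4 CPM in the 3g line, with 1030 in 3g wt male 17, and to 821.3 to 1190 CPM in the 16p11.2 line. No cortical neuron marker was at 0 in any group. Their part in the line difference of the factors was not tested.

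Genomic span moved with the direction. The genomic span of the members ran from 0.973 kb for Nop10 to 80.2 kb for Utp20, by the RefSeq annotation of GRCm38.p6, and these were the members with the highest and the lowest line difference. Across the 36 members the line difference in females had Pearson's r of -0.57 and Spearman's rho of -0.51 with log10 of the span. Across 14759 genes with a span r was -0.10 and rho -0.15. The points of each correlation share all 8 libraries, and whether span plays a part in the line difference was not tested.

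The rule for these genes asked whether they move with the ribosomal protein genes. Within groups, that is after the mean of each line, sex and genotype was subtracted, the mean of the members had Pearson's r of 0.51 and Spearman's rho of 0.52 with the ribosomal protein mean over the 16 libraries of the 3g line. Over the 16 of the 16p11.2 line r was 0.44 and rho 0.40. Without the libraries that stood apart r was 0.27 in both lines (15 and 14 libraries), and without the 2 libraries farthest from the median ribosomal protein mean it was 0.48 and 0.26. The spread differed as well, with a residual SD of 0.17 for the ribosomal protein mean against 0.02 for the member mean in the 3g line and 0.23 against 0.04 in the 16p11.2 line. In lysate RNA r was -0.12 and in footprints -0.10 (13 libraries each). The mean of the other ribosome biogenesis genes had r of -0.06 with the ribosomal protein mean in the 3g line and 0.06 in the 16p11.2 line. Without the libraries that stood apart these were -0.09 and 0.10. In lysate RNA r of that mean was -0.66 and in footprints 0.06.

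Single members took opposite sides. In the 16p11.2 line 14 of 36 members had r over 0.5 with the ribosomal protein mean and 8 had r under -0.5, where 20.8% and 18.2% of 20264 genes did. Without the libraries that stood apart these were 7 and 2 (12.8% and 7.96% of all genes), and the 7 were Mrto4 (0.89), Nhp2 (0.77), Nop10 (0.70), Bop1 (0.67), Sbds (0.65), Nip7 (0.54) and Bysl (0.53). The 2 were Utp20 (-0.77) and Bms1 (-0.54). In the 3g line without 3g wt male 17, 5 members had r over 0.5 (Fbl, Bms1, Mrto4, Nop14 and Nhp2, from 0.51 to 0.77) and 3 had r under -0.5 (Utp20, Gar1 and Wdr12, from -0.64 to -0.51), where 13.9% and 10.5% of all genes did. The counts in the 3g line were near the shares of all genes, so passing these cuts there does not set the members apart. In the 16p11.2 line the 2 of 36 under -0.5 were below the share of all genes, and the excess of the 7 over 0.5 was not tested. Mrto4 and Nhp2 were over 0.5 and Utp20 under -0.5 in both lines, whereas Bms1 was at 0.63 in the 3g line and at -0.54 in the 16p11.2 line.

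Members that followed the ribosomal protein genes within the 16p11.2 line were largely those that were higher in it than in the 3g line. Across the 36 members the line difference in females and the r within the 16p11.2 line, without the libraries that stood apart, had Pearson's r of 0.77 and Spearman's rho of 0.74. The wt females of the 16p11.2 line enter both measures, so the points share libraries. With the r within the 3g line the same values were 0.10 and 0.05. These correlations were not taken over all genes, so they are not shown to be particular to the members.

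**Figure D4:**
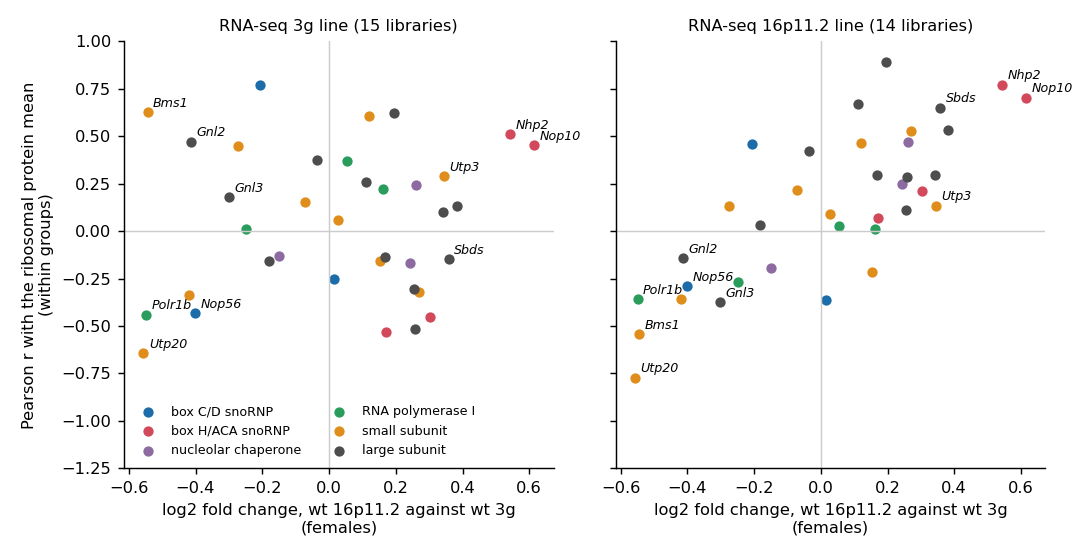
Pearson's r of each factor with the ribosomal protein mean within groups (vertical axis) against its log2 fold change between wt females of the 16p11.2 and the 3g line (horizontal axis), in the 3g line (left, 15 libraries) and the 16p11.2 line (right, 14 libraries). Points are the 36 members coloured by role. In the right panel Nop10 and Nhp2 stand at the upper right and Utp20 and Bms1 at the lower left, while in the left panel Bms1 is positive.

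Footprints against lysate RNA in 7 wt males were taken as a measure of how densely ribosomes covered the mRNAs, and here the members spread widely. The region counted and the processing of the footprints are not given in the sources used here. Their part in these values, those of Npm1 and the ribosomal protein genes included, was not tested. Between footprints and lysate RNA 15 of 36 members were called, where 8239 of 15208 genes (54.2%) were. Of these 7 had more footprints relative to RNA than the average gene (26.1% of all genes did) and 8 had fewer (28.1%). All 79 ribosomal protein genes were called with fewer, at a median of -2.17 on the log2 scale. The median of the members was 0.29, and 1 member, Npm1, lay below that of the ribosomal protein genes. DESeq2 called 11 with more and 6 with fewer, and edgeR without the animal as a block called 21 in all.

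Npm1 was the lowest at -2.94 (SE 0.20, adjusted p = 9.92e-15 by edgeR). It had 6, 4, 6, 11, 4, 4 and 8 footprint counts in the 7 wt males, where the lysate RNA of the same animals gave 1636, 1221, 1219, 1205, 1711, 1270 and 1201 counts. In CPM these were 9.20 to 22.3 in footprints and 67.0 to 89.3 in lysate RNA, without overlap. Ncl followed at -1.40 (SE 0.13, adjusted p = 6.96e-11), with 24 to 55 footprint counts and 2387 to 3108 lysate RNA counts. Tsr1, a GTPase-like factor of late small subunit maturation (-1.36, SE 0.27), Utp3, a small subunit processome protein (-1.34, SE 0.27), and Nop58 (-1.24, SE 0.22) came next. Sbds, which releases eIF6 from the large subunit, was at -0.76 (SE 0.22, adjusted p = 0.0037), and Ebna1bp2 (-0.61) and Wdr12 (-0.51) were close to the threshold (adjusted p = 0.0377 and 0.0382) and were not called by DESeq2.

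At the other end Rrp9 was at 1.41 (SE 0.33, adjusted p = 0.000519), with 2, 7, 14, 9, 4, 7 and 7 footprint counts against 83, 48, 86, 85, 93, 58 and 62 lysate RNA counts. Bop1 was at 1.21 (SE 0.26, adjusted p = 0.000181) and Gnl2, a GTPase of the large subunit, at 0.70 (SE 0.19, adjusted p = 0.00248). Ubtf, with 24 to 42 footprint counts, was at 0.56 (SE 0.14, adjusted p = 0.00108). Nop2 (0.80), Rrp12 (0.78) and Bms1 (0.64) passed with adjusted p of 0.0465, 0.0406 and 0.0212. None of the box H/ACA proteins passed, and their values ran from -0.03 for Dkc1 to 0.61 for Gar1. The proteins of the PeBoW complex took different positions, Bop1 at 1.21, Pes1 at -0.17 (SE 0.43) and Wdr12 at -0.51.

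**Figure D5:**
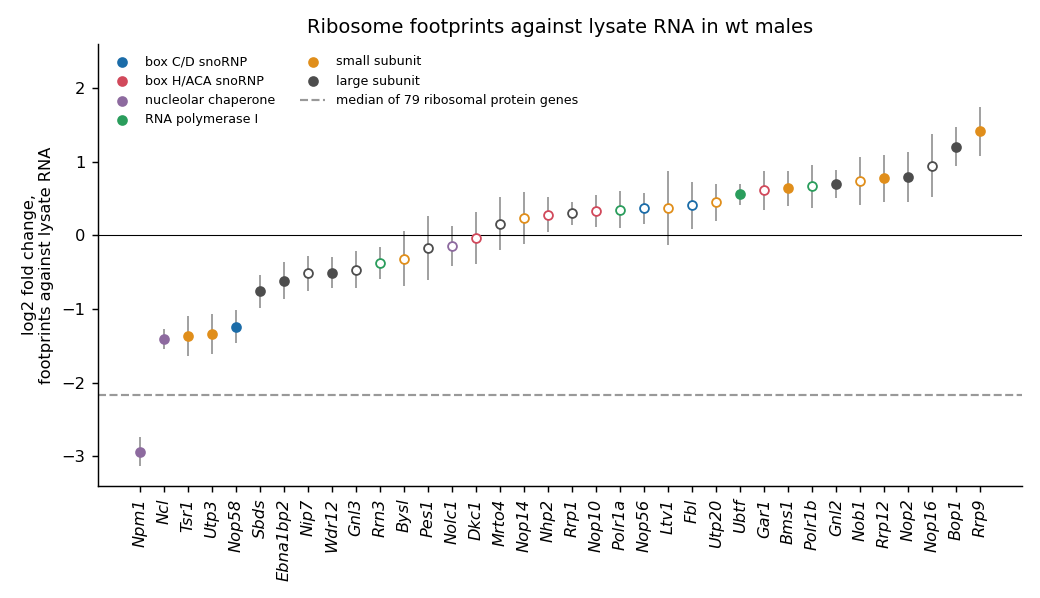
Log2 fold change of ribosome footprints against lysate RNA of the same 7 wt males for each of the 36 factors, with SE bars, coloured by role and filled where edgeR's adjusted p was under 0.05. The dashed line is the median of 79 ribosomal protein genes, -2.17. Npm1 at -2.94 is the only factor below it, and Rrp9 at 1.41 is the highest.

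Ribosomal protein mRNAs are known for a start of C followed by pyrimidines, which puts their translation under control of growth signals. The RefSeq windows of GRCm38.p6 hold 250 bases before and 50 from the annotated start of a gene, and 30 of 36 members had one (Fbl, Npm1, Rrp12, Bop1, Gnl2 and Sbds did not). A C at the annotated start followed by at least 4 pyrimidines was in 1 of these 30 genes (3.33%), in 3.01% of 27025 genes and in 14 of 58 ribosomal protein genes (24.1%). The member was Utp3. For members called in footprints against lysate RNA that have 1 entry in the table of windows, 10 bases before and 20 from the start are shown, with capitals for the start base and the run of pyrimidines it opens (no capitals where the start base is a purine):
Ncl (-1.40): cggggacggaCgcgagctctggttggtgga
Tsr1 (-1.36): cgggtccgccCggaagtagagttcacttgg
Utp3 (-1.34): ggaaacaggcCTTTCCCagactctctgctc
Nop58 (-1.24): gctgctccacgaggagaggtgtggagcggc
Ebna1bp2 (-0.61): gagaaaaccggaagtgcggctatgaacccg
Bms1 (0.64): tccgcttccggcgtcgtgcttgcgggctgg
Nop2 (0.80): ctttttgcgcTTgcgcgattcactttcgcg
Rrp9 (1.41): gggtttagcagccatgtgagttcttcgggg
They lie at chr1:86359436-86359465 (minus strand), chr11:74898070-74898099, chr5:88554452-88554481, chr1:59684996-59685025, chr4:118620789-118620818 (all plus), chr6:118419398-118419427 (minus), chr6:125131873-125131902 and chr9:106477299-106477328 (both plus). The runs are 7 bases in Utp3, 2 in Nop2 and 1 in Ncl and Tsr1. The RefSeq spans of Nop58 (from 59684961) and Bms1 (to 118419802) reach further upstream than the starts of these entries. An annotated start may miss the starts used in striatum, so a short run is a description of these letters only.

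Another feature that the list was not built on is the hosting of small nucleolar RNAs. By RefSeq, 6 of the 36 genes hold small nucleolar RNA genes inside their span, namely Nop56 with 5, Nop58 with 4, Gnl3 with 3, Ncl with 2 and Dkc1 and Tsr1 with 1 each. Such RNAs are cut out of introns and guide the modification of ribosomal RNA. The median of these 6 in footprints against lysate RNA was -0.85, with 1 above 0 (Nop56, 0.37), and that of the other 30 was 0.34, with 20 above 0. Reads of a small nucleolar RNA would enter the count of its host only if they were counted with it, and the counting rule is not given in the sources used here, so its part in these values was not tested. In RNA-seq the medians of the 6 hosts, del/+ against wt, were -0.00607 and 0.06 in 3g males and females and 0.05 and -0.06 in 16p11.2 males and females.

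Promoters of growth genes often carry the E-box bound by Myc. Its letters CACGTG, which read the same on both strands, were in the windows of 6 of 30 members (20%), in 22 of 115 other ribosome biogenesis genes (19.1%), in 6 of 58 ribosomal protein genes (10.3%) and in 8.09% of all genes. The 30 bases around each match are shown because the list of members was not built on them, with the motif in capitals:
Rrn3, from base -215: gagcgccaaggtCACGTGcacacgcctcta
Rrn3, from base -48: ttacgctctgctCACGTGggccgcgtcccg
Nop2, from base -60: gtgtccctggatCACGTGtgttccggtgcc
Pes1, from base 3: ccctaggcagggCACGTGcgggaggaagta
Tsr1, from base 25: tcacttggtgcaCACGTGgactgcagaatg
Ltv1, from base 29: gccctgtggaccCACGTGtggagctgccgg
Utp20, from base 38: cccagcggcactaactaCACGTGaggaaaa
Bases are counted from 1 at the annotated start and from -1 before it. The windows lie at chr16:13780472-13780501, chr16:13780639-13780668, chr6:125131811-125131840, chr11:3963965-3963994 and chr11:74898092-74898121 (all plus strand) and at chr10:13193092-13193121 and chr10:88826765-88826794 (both minus). The 6 genes did not move as one group. Their log2 fold changes between the lines in wt females ran from -0.56 for Utp20 to 0.25 for Pes1, with a median of 0.04, and the median of the 24 members with a window but without the motif was 0.16. In 16p11.2 females, del/+ against wt, the medians were -0.15 with the motif and -0.08 without.

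Overlap of genes limits some values. Of the members, 10 overlap another protein-coding gene in the RefSeq annotation (Nop56, Dkc1, Nhp2, Tsr1, Bysl, Bop1, Wdr12, Ebna1bp2, Gnl2 and Gnl3), and whether the counting used strand is not given in the sources used here, so reads of the 2 genes of a pair may not be separated. Reads of Mrto4 may also be shared with its pseudogenes.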

How the data were processed

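Bulk RNA of mouse striatum was read as 32 RNA-seq libraries, 13 ribosome footprint libraries and 13 libraries of lysate RNA. The deposited values are whole-number counts per gene made by the authors, and nothing was normalized before deposit. The submitters' processing notes name HTSeq and mm10 for RNA-seq and Bowtie2 and mm39 for the other libraries. Whether the counting used strand, the region counted and versions are not given in the sources used here, nor is the processing of the footprints. The labels give both polyA RNA and ribosomal RNA depletion. For the RNA-seq libraries the paper names a stranded total RNA kit with ribosomal RNA depletion, and why the labels also give polyA RNA was not resolved.

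Genes were filtered with filterByExpr, scaled by TMM and tested with the edgeR 4.0.16 quasi-likelihood test (R 4.3.3), Benjamini-Hochberg adjusted over all genes tested, with a threshold of 0.05. Each comparison used the libraries of its own groups. Log2 CPM used a prior count of 1. Footprints and lysate RNA of 1 animal come from 1 lysate per the labels, and their deviations from group means correlated in 13 of 13 animals (r from 0.112 to 0.529), so the animal was a block there and in translational efficiency, the interaction of assay and genotype. Exact permutation tests were two-sided. Alternatives were DESeq2 1.42.0, RLE scaling, no filter, each library left out, the replicate number as a block, and the 3 libraries that stood apart left out. Scripts were tested on simulated data.

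All 36 members are named. Values in every library, or their range, are given for the 2 members with the smallest p in each RNA-seq genotype comparison and for Fbl, Dkc1, Npm1, Ncl, Polr1a and Ubtf. The members, lists and alternatives were chosen with earlier results of these data known. Promoter and start windows and gene spans are from RefSeq, GRCm38.p6, matched by symbol, and no coordinate of the count tables was used. Depth limits the footprint values, and the numbers of libraries limit all tests.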

Additional observations from a re-analysis of the deposited data

Results flagged for a closer look

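In 10 of the 130 groups of 4 libraries tested for the members given library by library and the mean of the members, the highest or the lowest library lay far from the others, and chance gives this in about 1 in 20 groups. In 3g wt male 17, which stood apart on all genes, Nhp2 was at 37.9 CPM where the nearest library of its group was at 26.9, Gnl3 at 17.4 where the nearest was at 26.4, and Rrp12 at 32.5 where the nearest was at 46.3.

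The other 7 were in libraries that did not stand apart on all genes. Nhp2 was low in 3g wt female 30, at 22.98 CPM against 27.5 in the nearest library, and high in 16p11.2 wt male 1, at 42.2 CPM against 35.6. Ncl was low in 16p11.2 wt male 4, at 259.5 CPM against 302.96, and high in 16p11.2 wt female 1, at 279.7 CPM against 270.2. Bop1 was low in 16p11.2 del/+ female 4, at 44.1 CPM against 51.7. Gnl3 was high in 3g del/+ male 32, at 28.9 CPM against 27.6, and Fbl was low in 3g wt male 26, at 17.3 CPM against 19.2.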

How the results depend on the processing

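No member was called in any of the 10 genotype comparisons (122 fits) or 6 interactions (118 fits) under any setting run. Between wt males of the lines 0 members were called with all libraries, 4 by DESeq2, 2 without the filter on low counts and 19 without 3g wt male 17, and leaving out each library in turn gave 0 to 19. Between wt females the count was 27, 28 by DESeq2 and 24 without the filter, and 23 to 27 with each library left out. For footprints against lysate RNA it was 15, 17 by DESeq2 (11 higher, 6 lower), 18 with RLE scaling (12 higher, 6 lower), 21 without the animal as a block, and 11 to 16 with each animal left out. The replicate numbers of the 16p11.2 RNA-seq libraries did not pair them, since the correlation of deviations was over 0.1 in 1 of 4 female and 0 of 4 male pairs. With the replicate number as a block, 0 members were called in either sex and the medians were -0.10 in males and -0.09 in females. Over all settings 34 of 278 medians moved by more than the spread between libraries, as did 2 values of single members, 49 values of single members lost their call, and no called value changed sign. Values near 0 that were not called changed sign under some settings. Footprint depth, a median of 7 counts per member and library, limits that assay. Causes were not tested.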
